A study of Arvicanthis niloticus with 5 samples.

Results

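Levels of 81 genes of the primary cilium, of intraflagellar transport and of the centrosome and ARL families that go with them were read in RNA of the Nile rat (Arvicanthis niloticus) eye. A gene was taken when the first symbol of its transcript, in the order mouse, rat, human, was an IFT, BBS, CEP, NPHP, TCTN, B9D or ARL gene with a number, an RPGR-type gene, or one of TTC8, TTC21B, WDR19, WDR35, CC2D2A, MKS1, MKKS, TMEM67, TMEM231, INVS, AHI1, OFD1 and SDCCAG8. The rule uses names alone. The 81 genes lay on 88 transcripts, out of 13982 named genes on 15454 named transcripts. The study sequenced eyes of wild-type animals. Its labels list 5 samples, all in 1 group with no treatment, and state that RNA of 5 rats was pooled; genotype and strain are both given as wild type, and the sources used here give no age. The deposited table holds 1 column, and the sources used here do not say whether it combines the 5 samples or holds 1 of them, so the spread between animals is unknown and nothing could be tested across them. Brackets below give 95% intervals for counting error alone.

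The primary cilium is a microtubule-based antenna that grows from a centriole and is built by trains of intraflagellar transport (IFT) particles. IFT-B particles with a kinesin carry cargo to the tip, IFT-A particles with a dynein bring it back, and the BBSome acts as a cargo adaptor for membrane proteins. A gate at the base, the transition zone, controls what enters. In the retina the photoreceptor outer segment is a modified cilium, joined to the cell body by a connecting cilium, and mutations in many of these genes cause retinal degeneration. Primary cilia are also found on many other cell types, so a level in whole-eye RNA does not belong to photoreceptors alone. In bulk RNA, fewer cells of a type and less RNA per cell cannot be told apart.

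The pool carried the markers of the tissue on its label. All 10 lens genes looked at had at least the 194 FPKM of Mip, led by the crystallins Crygb at 3621 FPKM and Cryab at 2894 FPKM, and 15 of 15 photoreceptor genes reached 10 FPKM. Of 6 measured genes of the retinal pigment epithelium 5 did, led by Rlbp1 at 432 FPKM and Rpe65 at 238 FPKM, with Mitf lowest at 1.75 FPKM. Of all named genes, 34.0% reached 10 FPKM. RNA of lens and of other tissues is therefore part of the 64967222 mapped fragments over which each FPKM is scaled.

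As a class the genes were present at moderate levels. FPKM is the number of fragments per 1000 nt of transcript and 1000000 mapped fragments, so it can be compared between genes of different length. At least 1 FPKM was reached by 75 of the 81 genes, which is 92.6%, against 93.2% of all named genes. At least 10 FPKM was reached by 20 of the 81, or 24.7%, against 34.0% of all named genes. The median over the 81 genes was 5.73 FPKM and that over all named genes 6.50 FPKM. The interquartile range of named genes, from 3.03 to 13.7 FPKM, held 45 of the 81, with 20 below this range and 16 above it. The 20 genes of at least 10 FPKM did not spread evenly over the roles. Of these, 12 were among 23 genes with an ARL name (52.2%), 5 among 13 IFT subunits (38.5%) and 2 among 7 BBSome subunits (28.6%). The IFT and BBSome shares lay on either side of the 34.0% of all named genes. The remaining 1 was Rpgrip1, while none of the 19 centrosomal genes and none of the 14 transition zone genes reached that level.

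**Figure D1:**
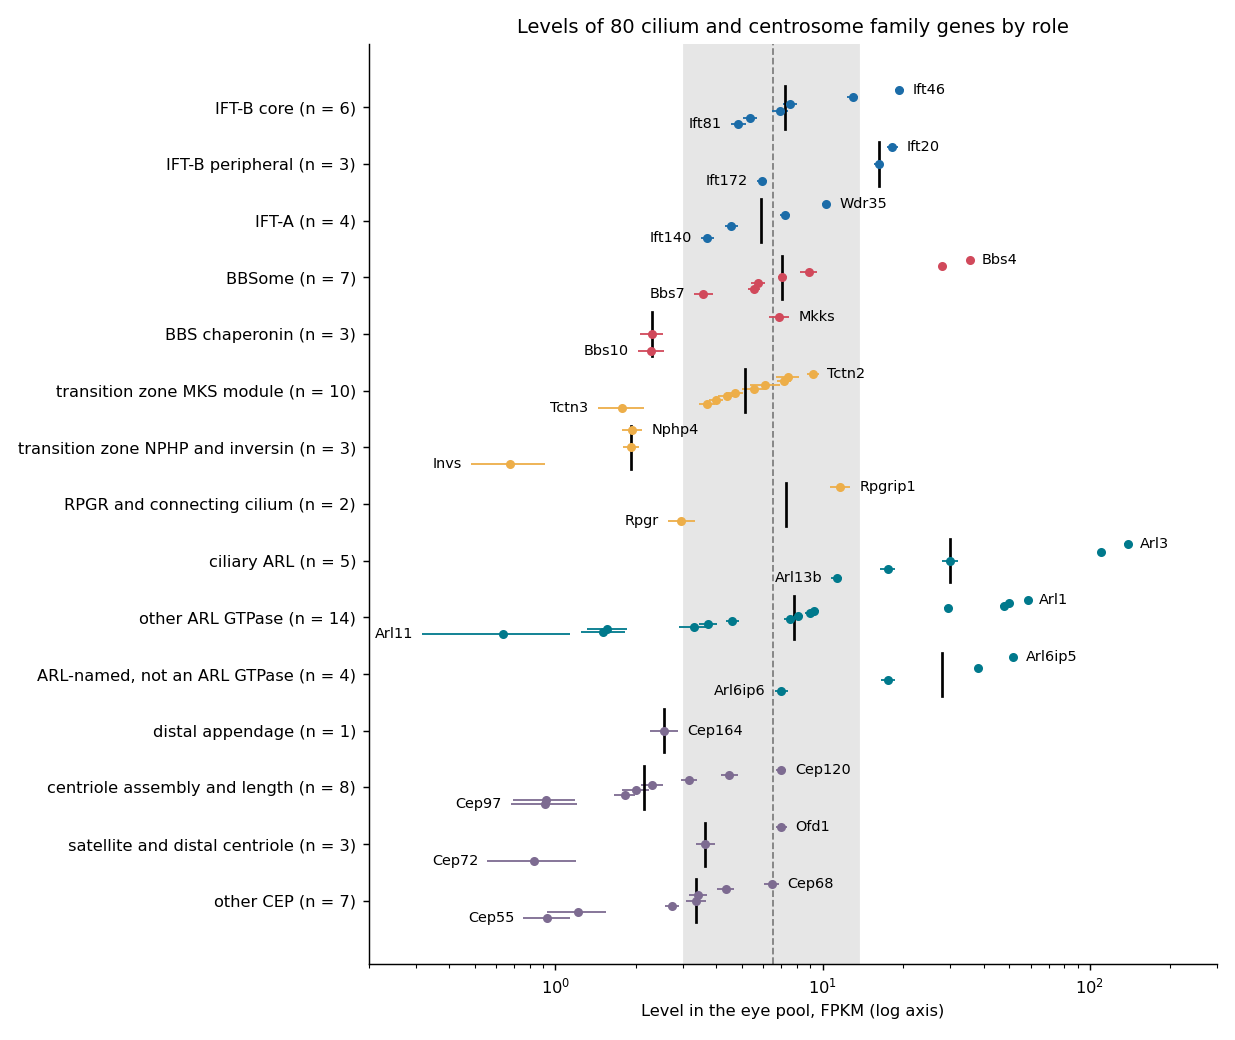
Each point is 1 of 80 genes, with its level in the eye pool in FPKM on a log axis and its 95% counting interval, grouped by role; black bars are role medians, the grey band is the interquartile range of all named genes and the dashed line their median of 6.50 FPKM. Arl3 lies farthest right at 138 FPKM, and the centrosomal roles at the bottom lie at or left of 7.01 FPKM.

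IFT-B, the particle of outward transport, was measured through 9 subunits with a median of 7.52 FPKM. Ift46 was highest at 19.4 FPKM [18.6 to 20.1], followed by Ift20 at 18.2 FPKM [17.3 to 19.1]. The counting interval of the ratio between these 2 genes (1.06-fold [1.00 to 1.13]) ran down to equality. Ift20 is the subunit that is also found at the Golgi, and Ift57, a further peripheral subunit, stood at 16.2 FPKM. Ift52, of the core, was at 13.0 FPKM. The other 5 subunits lay between 4.83 and 7.52 FPKM. They were Ift74 and Ift81, which together form a tubulin-binding module, at 7.52 and 4.83 FPKM, the small GTPase Ift27 at 6.92 FPKM, Ift172 at 5.92 FPKM and Ift88, the subunit mutated in the Oak Ridge polycystic kidney mouse, at 5.35 FPKM. Ift46 was thus 4.0-fold [3.72 to 4.31] above Ift81, although both are core subunits. Ift46 and Ift81 are among the genes whose transcript carried different names in different species; the other names, such as Cdv1 in rat for Ift81, are older names of the same gene.

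IFT-A, the particle of return transport, was measured through 4 subunits with a median of 5.88 FPKM. Wdr35 was highest at 10.3 FPKM [9.94 to 10.7], Ttc21b stood at 7.22 FPKM, Ift122 at 4.55 FPKM and Ift140 at 3.70 FPKM [3.51 to 3.91]. The order of these 4 genes was larger than counting error at each step. Wdr35 was 2.78-fold [2.61 to 2.97] above Ift140. Between the particles, Ift88 was 1.44-fold [1.33 to 1.56] above Ift140, and the median of IFT-B was higher than that of IFT-A by 0.36 on the log2 scale. When transcripts whose symbols differ between species were left out, which removed Wdr35, Ift27, Ift46, Ift74 and Ift81, this difference became 1.51. Its size thus depends on which of these few subunits are counted.

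Of the IFT subunits that carry other names, 6 were measured, at 4.35 to 13.5 FPKM. Rabl5 (Ift22) was highest at 13.5 FPKM, Hspb11 (Ift25) stood at 8.70 FPKM, Cluap1 (Ift38) at 8.52 FPKM and Traf3ip1 (Ift54) at 5.21 FPKM, and Ttc26 (Ift56) was lowest at 4.35 FPKM. Over the 19 IFT subunits under all names the range was 3.70 to 19.4 FPKM, with a median of 7.22 FPKM. The motors were measured in part. Of the kinesin that drives IFT-B, Kifap3 was at 29.6 FPKM, Kif3b at 15.0 FPKM and Kif3a at 10.2 FPKM. Of the dynein-2 list, the subunits Dync2li1 and Wdr60 stood at 6.38 and 5.53 FPKM and Wdr34 at 12.8 FPKM. The light chains Dynll1 (96.2 FPKM) and Dynlrb1 (71.2 FPKM) also serve cytoplasmic dynein.

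The BBSome subunits fell into a high pair and a low set. Bbs4 was at 35.6 FPKM [34.7 to 36.5] and Ttc8, also called Bbs8, at 28.0 FPKM [27.2 to 28.8]; both are subunits built of tetratricopeptide repeats. The other 5 subunits lay between 3.58 and 8.86 FPKM. Among them, Bbs1, which binds the GTPase Arl6, was at 7.07 FPKM, Bbs2 at 5.73 FPKM, Bbs9 at 5.53 FPKM and Bbs7 at 3.58 FPKM. Bbs4 was 5.04-fold [4.80 to 5.28] above Bbs1 and 9.95-fold [9.16 to 10.8] above Bbs7, and Ttc8 was 3.96-fold [3.77 to 4.16] above Bbs1. Bbs4, Ttc8 and Bbs7 each rested on 1 transcript, of 2473, 2502 and 2663 nt, and that of Ttc8 was named from human only. Bbs2 and Bbs9 did not differ beyond counting error (1.04-fold [0.953 to 1.13]), whereas Bbs1 was 1.23-fold [1.15 to 1.33] above Bbs2. Bbs5 (8.86 FPKM) was the sum of 2 transcripts named from different species, at 4.98 and 3.88 FPKM, and is too high if these are pieces of 1 mRNA.

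Of the chaperonin-like proteins that assemble the BBSome, Bbs10 and Bbs12 stood at 2.28 and 2.29 FPKM, below every measured BBSome subunit, and their ratio of 1.01-fold [0.868 to 1.17] was within counting error. Mkks, also called Bbs6, was at 6.89 FPKM [6.32 to 7.50], 3.00-fold [2.63 to 3.43] above Bbs12. Against the median of all named genes, 4 of the 7 BBSome subunits and 1 of the 3 chaperonin-like genes were higher.

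**Figure D2:**
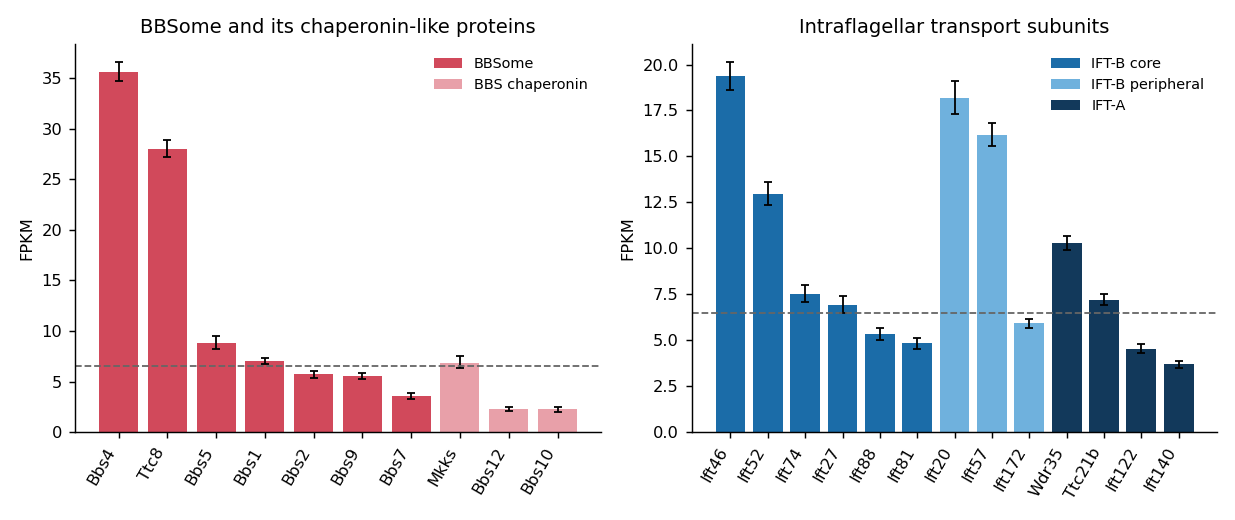
Bars give the level in FPKM of each BBSome and chaperonin-like gene (left) and each IFT subunit (right), on linear axes that start at 0, with 95% counting intervals; the dashed line is the median of all named genes, 6.50 FPKM. Bbs4 and Ttc8 stand apart from the other 5 BBSome subunits, and Ift46, Ift20, Ift57 and Ift52 are the highest IFT subunits.

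The transition zone was measured through 14 genes, with a median of 4.54 FPKM. The median stood at -0.37 against that of IFT-A on the log2 scale, and at -0.11 when transcripts whose symbols differ were left out. In the MKS module, a set of gate proteins named after Meckel syndrome, 10 genes lay between 1.77 and 9.19 FPKM. The tectonic proteins differed among themselves: Tctn2 was at 9.19 FPKM, 2.30-fold [2.13 to 2.48] above Tctn1 at 4.0 FPKM, which was 2.26-fold [1.84 to 2.78] above Tctn3 at 1.77 FPKM. Tctn3 rested on 99 fragments and 862 nt. Of the B9-domain proteins, B9d1 (7.39 FPKM) was 1.68-fold [1.48 to 1.90] above B9d2 (4.40 FPKM), and the third protein of this kind, Mks1, was at 4.69 FPKM. Cc2d2a stood at 7.16 FPKM, the membrane protein Tmem231 at 6.09 FPKM, and Ahi1, the Joubert syndrome protein jouberin, at 3.70 FPKM. Cep290, which links the microtubules of the transition zone to the membrane and whose mutations cause Leber congenital amaurosis, was at 5.51 FPKM [4.98 to 6.08] on a single transcript of 1119 nt that was named in mouse only. In this module 5 of the 9 steps in the order of levels were within counting error.

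Among other proteins at and above the gate, Nphp4 and Rpgrip1l, which bind each other, stood at 1.94 and 1.91 FPKM, a ratio of 1.01-fold [0.907 to 1.13]. Rpgrip1l had the longest transcript of all 81 genes, 6499 nt. Cep290 was 2.88-fold [2.55 to 3.25] above Rpgrip1l. Since Cep290 was read from 1119 nt, this ratio depends on how that transcript stands for the mRNA. Invs (inversin) was at 0.674 FPKM [0.483 to 0.916], on 40.5 fragments of a transcript of 925 nt named from human only.

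In the connecting cilium of photoreceptors, Rpgr is tethered by Rpgrip1. Rpgrip1 was at 11.6 FPKM [10.6 to 12.7] and Rpgr, the gene most often mutated in X-linked retinitis pigmentosa, at 2.96 FPKM [2.63 to 3.31]. Rpgrip1 was 3.93-fold [3.41 to 4.53] above Rpgr and 6.08-fold [5.44 to 6.79] above its paralog Rpgrip1l, which acts at transition zones of many cell types. Rpgrip1 was read from a piece of 677 nt, named in rat only, so its level depends on how that piece stands for the mRNA. Rpgr too rested on 1 transcript, of 1551 nt and 298 fragments, and the same limit applies to it. Rpgr overlaps Otc, and Rpgrip1 overlaps Supt16h, in the Nile rat RefSeq annotation (assembly mArvNil1.pat.X), and the sources used here do not say whether reads were counted by strand.

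ARL GTPases and their partners at the cilium had a median of 29.9 FPKM over 5 genes, the highest of the roles for summed transcripts, followed by 27.9 FPKM for 4 ARL-named genes that are not ARL GTPases. The order of these medians turned to 17.5 against 27.9 FPKM with the highest transcript of each gene or a length-weighted mean, and to 29.9 against 38.2 FPKM without transcripts whose symbols differ. Arl3 releases lipid-modified proteins from their carriers inside the cilium, and Arl13b is the exchange factor that activates it there. Arl3 was at 138 FPKM [134 to 142] and Arl2bp, a protein that binds both Arl2 and Arl3, at 110 FPKM [108 to 112]; no other gene of the 81 reached 100 FPKM. They lay at percentiles 98.5 and 98.0 of the named genes. Arl2, which shares carriers with Arl3 and also acts in tubulin folding, was at 29.9 FPKM [27.9 to 32.1]. Arl6, also called Bbs3, the GTPase that recruits the BBSome to membranes, was at 17.5 FPKM, and Arl13b at 11.3 FPKM. Arl3 was 4.62-fold [4.28 to 4.99] above Arl2 and 12.3-fold [11.6 to 13.0] above Arl13b.

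These 5 genes held 29.97% [29.6 to 30.3] of the summed FPKM of all 81. This share depended on how transcripts were combined, since Arl3 (103 FPKM on 534 nt and 34.9 FPKM on 479 nt), Arl2 (17.4 FPKM on 359 nt and 12.6 FPKM on 456 nt) and Arl13b (9.04 FPKM on 3556 nt and 2.22 FPKM on 987 nt) were each sums of 2 transcripts. With the highest transcript of each gene the share was 26.6%, and with a mean weighted by length 23.8%. Arl3 itself fell to 103 FPKM with the highest transcript, and likewise without transcripts under 500 nt, and to 71.1 FPKM with the length-weighted mean, so that in these settings it stood below Arl2bp at 110 FPKM. Arl3 stayed above Arl2 and Arl13b with the highest transcript and the length-weighted mean, with log2 ratios of 2.58 and 3.52 for the highest transcript against 2.21 and 3.62 for the sum. Arl2 had no transcript of at least 500 nt.

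**Figure D3:**
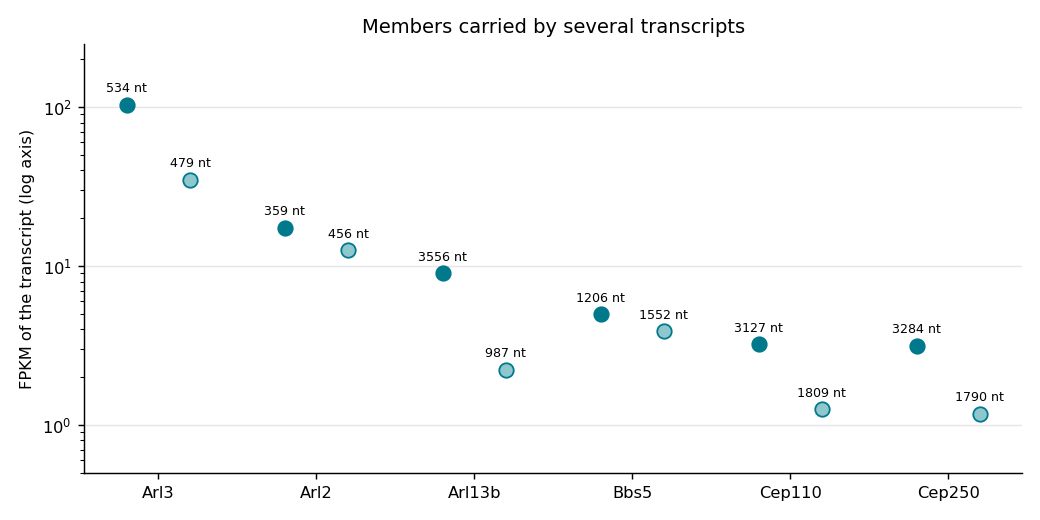
Points give the FPKM, on a log axis, of each transcript of 6 genes that were carried by 2 transcripts; the darker point is the higher transcript and labels give its length. The gap is smallest in Bbs5 (4.98 and 3.88 FPKM) and widest in Arl13b (9.04 and 2.22 FPKM).

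The carriers of lipid-modified proteins, which are not among the 81 genes, were also abundant. Unc119, which carries the transducin alpha subunit to the rod outer segment, was at 444 FPKM, 3.21-fold [3.11 to 3.31] above the summed level of Arl3. Pde6d, the carrier of prenylated phosphodiesterase and kinases, was at 26.3 FPKM and Unc119b at 15.6 FPKM. For comparison, 15 photoreceptor genes measured in the pool had a median of 146 FPKM and ranged from 13.1 FPKM for Nrl to 410 FPKM for Guca1a and 502 FPKM for Gngt1. Gnat2, the cone transducin alpha subunit, stood at 139 FPKM and Pde6g, a rod phosphodiesterase subunit, at 146 FPKM, beside Arl3 at 138 FPKM. Of these, Pde6g and Arl3 were each sums of 2 transcripts. Arl3 was at 103 FPKM with its highest transcript and at 71.1 FPKM with the length-weighted mean. Its place beside these genes and its fold below Unc119 therefore depend on the summing. Unc119 at 444 FPKM was above Arl3 in each of these settings.

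The name rule also took 18 genes with an ARL name that were grouped here as outside the cilium, and these raise the values of the class. The grouping is by general knowledge of the genes, and a ciliary part of some, such as Arl16, is not excluded. They were 14 GTPases with a median of 7.81 FPKM and 4 genes that are not ARL GTPases, with a median of 27.9 FPKM. Arl1, a GTPase of the Golgi, was highest at 58.4 FPKM. The lysosomal GTPases Arl8a and Arl8b stood at 47.5 and 49.9 FPKM, a ratio of 1.05-fold [1.02 to 1.09]. In the Arl4 group, Arl4d (29.4 FPKM) was 3.64-fold [3.44 to 3.85] above Arl4c (8.08 FPKM), and Arl4a was at 4.59 FPKM. In the Arl5 group, Arl5a (8.99 FPKM) was 2.42-fold [2.21 to 2.64] above Arl5b (3.72 FPKM), which was 2.38-fold [1.98 to 2.86] above Arl5c (1.57 FPKM). Arl10 was at 9.26 FPKM, Arl15 at 7.54 FPKM and Arl16 at 3.30 FPKM. The lowest were Arl11 at 0.634 FPKM [0.317 to 1.13], on 11 fragments of a 267 nt transcript, and a transcript named Arl8 in rat only at 1.51 FPKM. Arl6ip5 and Arl6ip1, proteins of the endoplasmic reticulum, were at 51.6 and 38.2 FPKM. Arl6ip4 and Arl6ip6 stood at 17.5 and 6.99 FPKM. Without these 18 genes, 13 of 63 genes reached 10 FPKM, or 20.6%, and the median was 5.35 FPKM.

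Centrosomal genes had a median of 2.73 FPKM over 19 genes. Of these, 2 exceeded the median of all named genes. Cep164, of the distal appendages that dock the centriole at the membrane, was at 2.56 FPKM. The genes of centriole assembly and length had a median of 2.15 FPKM: Cep120 was highest at 7.01 FPKM, Cep76 stood at 3.16 FPKM, Cep192 at 2.30 FPKM, Cep57l1 at 2.0 FPKM and Cep135 at 1.82 FPKM. Cep152 and Cep97 stood at 0.918 and 0.916 FPKM, on 57.5 and 51 fragments. The symbol Cep110 joined different genes. Its transcript of 3127 nt (3.21 FPKM) was named CP110 in human, a cap of the centriole, and its transcript of 1809 nt (1.26 FPKM) was named CEP110 in human, an older name of centriolin. Among genes of centriolar satellites and the distal centriole, Ofd1 (7.00 FPKM) was 1.92-fold [1.75 to 2.11] above Sdccag8 (3.64 FPKM), and Cep72 was at 0.831 FPKM on 29 fragments.

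The other CEP genes lay between 0.933 and 6.44 FPKM. Cep68 and Cep250, of the linker between centrioles, stood at 6.44 and 4.34 FPKM, the latter a sum of 2 transcripts. Cep70 and Cep78 were at 3.42 and 3.36 FPKM and Cep350 at 2.73 FPKM. Cep170, of the subdistal appendages, was at 1.21 FPKM [0.930 to 1.55] and Cep55, a protein of the midbody in dividing cells, at 0.933 FPKM [0.759 to 1.14]. A list of 7 cell cycle genes had a median of 1.88 FPKM, with Ccnb1 at 5.28 FPKM, Cdk1 at 4.84 FPKM and Stil lowest at 0.595 FPKM.

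The 6 genes below 1 FPKM were Arl11, Invs, Cep72, Cep97, Cep152 and Cep55. For 5 of them, all but Cep55, the longest transcript was under 1000 nt, against 14 of all 81 genes. The intervals of Arl11, Cep72, Cep97, Cep152 and Cep55 reached above 1 FPKM. Just above the mark lay Cep170 at 1.21 FPKM and the Arl8 transcript at 1.51 FPKM. A further transcript, named CEP170 in human at 1.34 FPKM, was left out by the name rule and is not in the level of Cep170. Over the 81 genes the rank correlation of level with the length of the longest transcript was 0.016, and over all named genes 0.16. These describe genes of 1 column, which share the same fragments, and genes are not independent replicates. The median length of the longest transcript was 2502 nt for the 81 genes and 2282 nt for all named genes.

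**Figure D4:**
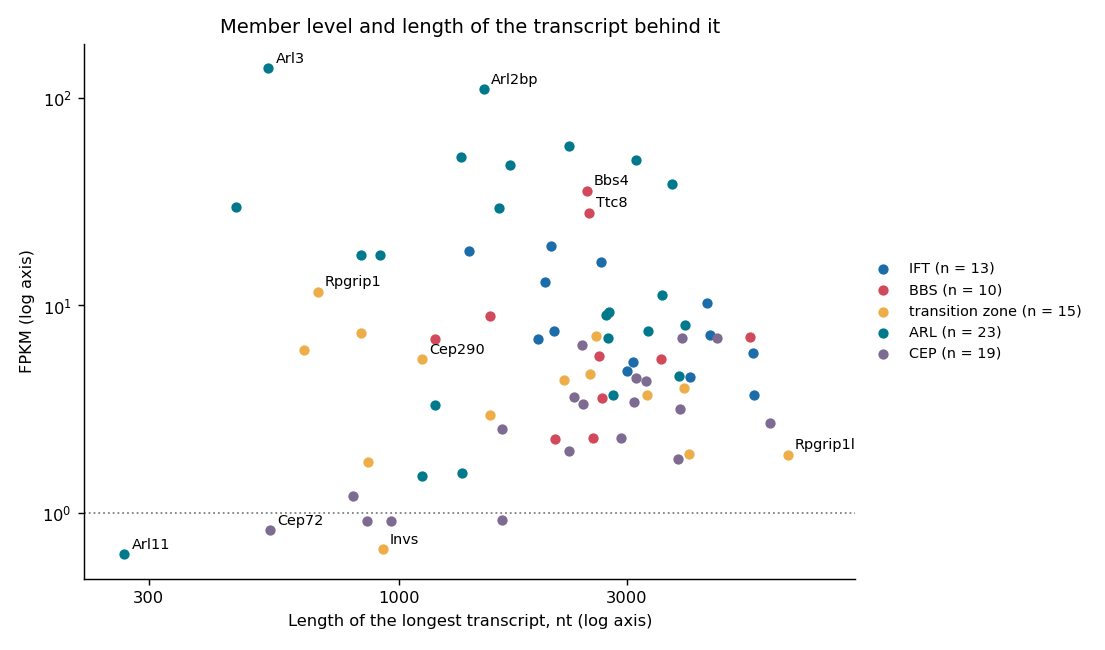
Each point is 1 of 80 genes, with the length of its longest transcript in nt and its level in FPKM, both on log axes, coloured by family, with Rpgr and Rpgrip1 counted with the transition zone; the dotted line marks 1 FPKM. Arl11, Cep72 and Invs are low on short transcripts, while Arl3 is high on a short transcript and Rpgrip1l low on the longest.

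Other genes of the ciliary pathway stood on either side of the 81. Of 12 measured genes of the photoreceptor cilium and axoneme, 11 reached 1 FPKM, with a median of 7.84 FPKM. Of all named genes, 93.2% reached 1 FPKM. Cdhr1, a cadherin at the base of the outer segment, was highest at 130 FPKM. Rp1l1, a microtubule protein of the axoneme, stood at 20.7 FPKM and its relative Rp1, a sum of 2 transcripts, at 9.43 FPKM. Lca5, named after Leber congenital amaurosis, was at 4.86 FPKM, and Nek2 was lowest at 0.889 FPKM. Of the tubby family, which moves membrane receptors into cilia, Tulp1 was at 41.6 FPKM, Tub at 9.90 FPKM and Tulp3 at 2.92 FPKM. Of 6 RFX factors, which bind promoters of ciliary genes, 3 carried a symbol: Rfx7 stood at 3.75 FPKM, Rfx2 at 2.74 FPKM and Rfx3 at 1.94 FPKM. Hedgehog signalling passes through the cilium, and 5 of its 9 measured genes reached 1 FPKM, against 93.2% of all named genes. Sufu (8.16 FPKM) and the receptor Ptch1 (6.26 FPKM) led this list, and Gpr161 was lowest at 0.631 FPKM.

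Most of the measured genes of motile cilia were near the lower end of the table. Of the 20 listed, 7 carried a symbol and 3 of these reached 1 FPKM, against 93.2% of all named genes. The 7 genes had a median of 0.734 FPKM and a sum of 8.94 FPKM. They rested on 16 to 174 fragments and on transcripts of 456 to 1120 nt. Listed genes without a symbol were not read. Rsph9, of the radial spokes, was highest at 4.13 FPKM and Spef2 stood at 1.11 FPKM. Foxj1, the master factor of motile cilia, was at 0.734 FPKM [0.499 to 1.04] on 31 fragments, and Ccdc39 was lowest at 0.540 FPKM. Primary cilia lack the radial spokes and dynein arms of motile cilia.

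**Figure D5:**
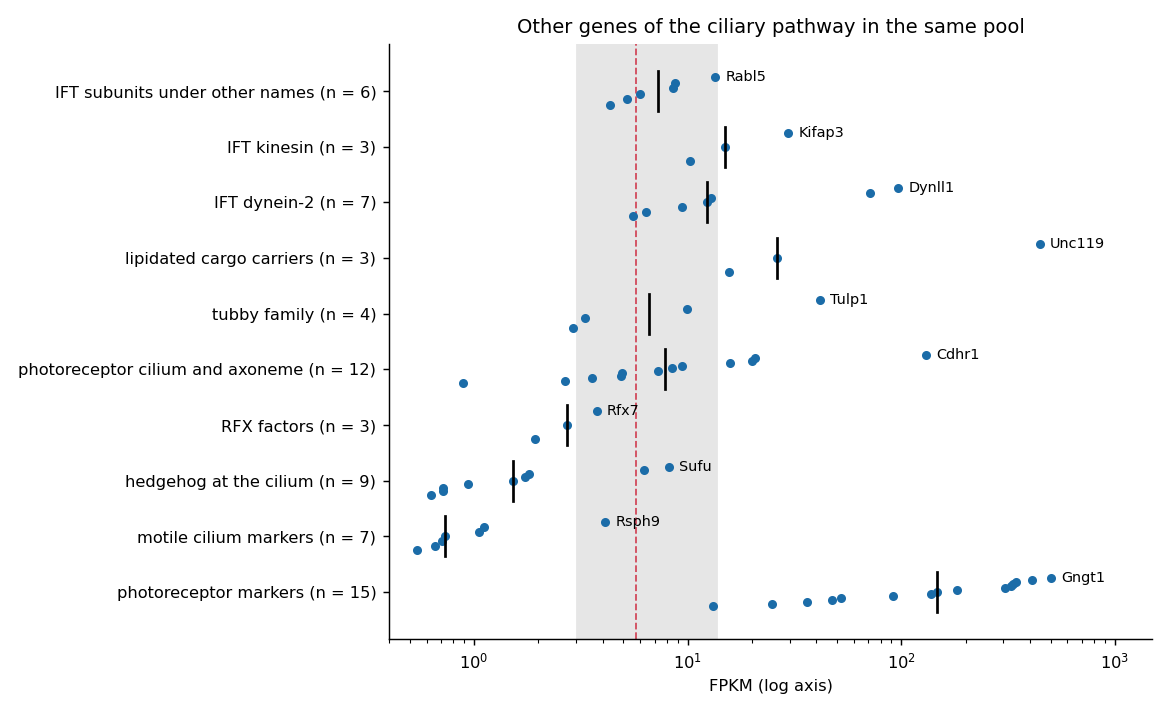
Points are genes outside the 81, with their FPKM on a log axis, by list; black bars are list medians, the red dashed line is the median of the 81 genes (5.73 FPKM), and the grey band is the interquartile range of all named genes. Unc119 is highest among the ciliary lists at 444 FPKM, and the motile cilium genes lie lowest, with a median of 0.734 FPKM.

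How much of each family could be read depended on names. The Nile rat RefSeq annotation holds 116 protein-coding genes that the name rule would take. A transcript carried the symbol for 79 of these, and Cep110 and Arl8 had no gene of that symbol there. The other 37, among them Ift80, Ift43, Wdr19, Tmem67, Cep83, Cep89 and Cep131, were not analysed here, apart from those met under an older name. Their absence from the list of names is no sign of low expression. Of the 88 transcripts, 30 had a symbol from 1 species, 37 had agreeing symbols and 21 had symbols that differed between species. Fragments per gene ran from 11 to 10731 with a median of 947, and 8 genes had under 100. On 38 of the 88 transcripts the count was fractional, so fragments had been divided between transcripts, an error the intervals do not hold. In the RefSeq annotation 18 of the 81 genes overlap another protein-coding gene, among them Ift20 with Tnfaip1, Cep290 with Rlig1 and Cep170 with Sdccag8, and reads of such genes may be shared. Within roles, 17 of 66 steps between genes next to each other in level had an interval that included equality.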

How the data were processed

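Per the labels, libraries of Nile rat eye RNA were made from a pool of animals, and the 5 samples form 1 group; the table has no column per sample, and which samples its 1 column covers is not stated. Per the submitters' processing notes reads were aligned with Bowtie; no version, assembler or genome build was stated in the sources used here. Per the file headers, the authors deposited an FPKM, an estimated fragment count and a length for each of 124439 transcripts, with 64967222 mapped fragments in all. Of the estimated counts deposited, 39.3% were fractional.

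Here each transcript took its first symbol that was not an Ensembl or GenBank identifier (mouse, rat, human), and FPKM were summed per gene, which is too high where 1 mRNA was assembled in pieces. Intervals are 95% gamma (Fay-Feuer) for levels and delta-method for ratios, both Poisson and checked only on counts simulated as Poisson. They cover counting error only: PCR copies are not independent molecules. A transcript of 1000 nt at 1 FPKM holds 65.0 fragments, and 0 fragments there allows up to 3, or 0.0462 FPKM.

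Members, roles, lists and pairs were chosen with earlier results of these data known. Named were all members of the cilium roles, the highest 5 and lowest 3 of each remaining role, and the highest 2 and lowest 1 of each list; further genes and ratios were chosen after their values were seen. The level of 1 gene of the 81 and a planned ratio are not reported here; that gene is in the counts and medians over the 81 and over the transition zone, and not in the plots. The planned share of promoters with an RFX site was not computed, since no sequences were used here. RefSeq served for names and gene order. Alternatives are in the closing section. Tables were handled with pandas 2.3.3 in Python 3.11.15, intervals computed with SciPy 1.17.1 and NumPy 2.4.6, and plots drawn with Matplotlib 3.10.9.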

Additional observations from a re-analysis of the deposited data

Results flagged for a closer look

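A transcript that the name rule left out carried, in human, the symbol of Cep170, which is in the list. It was named mKIAA0470 in mouse and CEP170 in human, stood at 1.34 FPKM on 171 fragments and 1968 nt, and lay above the 0.0235 FPKM that a count of 0 allows there. Cep170 itself was read from a transcript of 801 nt at 1.21 FPKM. The left-out transcript was not summed with it, so the level given for Cep170 is too low if both belong to that gene.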

How the results depend on the processing

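With 1 column of values, leaving out a sample could not be done, and the promoter alternative was not run. Rescaling to a sum of 1000000 multiplied each level by 0.729, which gave medians of 4.18 over all 81 genes, 5.27 in the IFT-B core, 11.8 in peripheral IFT-B, 4.29 in IFT-A, 5.15 in the BBSome, 1.67 in the chaperonin-like genes, 3.72 in the MKS module, 21.8 in ciliary ARL, 5.70 in other ARL GTPases, 20.3 in other ARL-named genes, 1.57 in centriole assembly, 2.66 in satellites and 2.45 in other CEP genes. It left the ratios of role medians and the ciliary ARL share as they were.

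The highest transcript and the length-weighted mean each gave medians of 5.73 FPKM in the BBSome and 17.5 FPKM in ciliary ARL, and both turned the log2 ratio of BBSome to IFT-A from 0.26 to -0.038, through Bbs5. The length-weighted mean gave 2.73 FPKM in other CEP genes. The ciliary ARL share was 26.6% with the highest transcript, 23.8% with the length-weighted mean, 25.3% without transcripts under 500 nt and 37.0% without transcripts whose symbols differ.

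Leaving out transcripts whose symbols differ between species kept 64 genes, including those with a symbol from 1 species, and gave medians of 9.16 FPKM in the IFT-B core, 4.55 in IFT-A, 5.63 in other ARL GTPases, 38.2 in other ARL-named genes, 1.26 in centriole assembly and 2.73 in other CEP genes. The log2 ratios to IFT-A were then 1.51 for IFT-B, 0.64 for the BBSome and -0.11 for the transition zone. Without transcripts under 500 nt the ciliary ARL median was 60.5 FPKM, since Arl2 was lost.

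At 5 and 20 FPKM, 44 and 11 genes passed in place of 20 at 10 FPKM. The share of all named genes was computed at 1 and 10 FPKM only, so these 2 counts have nothing to be read against. The log2 ratio of Arl3 to Arl2 was 2.58 with the highest transcript; that of Arl3 to Arl13b was 3.51 with a pseudocount of 1, 3.52 with the highest transcript and 3.23 with the length-weighted mean. With a pseudocount of 1, Rpgrip1 was 2.12 above Rpgrip1l and 1.67 above Rpgr on the log2 scale. Of the alternatives added after seeing the data, leaving out the ARL genes outside the cilium gave 13 genes at 10 FPKM and a median of 5.35 FPKM, and leaving out transcripts of conflicting names moved none of these counts, medians and ratios beyond their counting interval or, for counts, by over 1.5 times.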
